A study of Oryctolagus cuniculus with 20 samples.

Results

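The comparison set the tricuspid valves of rabbits given dexfenfluramine against those of non-treated rabbits. The valves were chosen by the sample labels, 5 labelled as dexfenfluramine and 5 as control, which makes 10 of the 20 valves of the study. The study asked what amphetamine-like and ergot-derived drugs do to heart valves, and kept female New Zealand White rabbits, 8 weeks old at the start, for 16 weeks with or without a drug in the drinking water. Dexfenfluramine was given at 20 mg/kg per day by the labels and the methods, while a passage of the study's results gives a lower dose, and the non-treated rabbits drank water without a drug. The remaining valves, from rabbits given serotonin at 80 mg/kg per day or pergolide at 0.5 mg/kg per day, entered the same fit, and only the pergolide valves are set beside those of dexfenfluramine. Each library held total RNA of a tricuspid valve, freed of ribosomal RNA and sequenced as a stranded library, and each replicate number within a group stands for a separate rabbit.

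A leaflet of a heart valve is a thin sheet of connective tissue, made by valvular interstitial cells and covered by endothelium, with layers rich in fibrillar collagen, in proteoglycans and in elastic fibres. Heart muscle reaches into the base of the atrioventricular valves, so that a dissected valve can carry muscle with it. Dexfenfluramine, an appetite suppressant, releases serotonin from nerve endings, and its metabolite norfenfluramine activates the serotonin receptor HTR2B on interstitial cells; fenfluramines were withdrawn after valve disease was seen in their users.

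The 5 non-treated valves had between 4206516 and 5831376 reads counted on genes, and the 5 dexfenfluramine valves between 3247091 and 5790948, which limits the precision for genes with few reads. The most abundant transcript, from ENSOCUG00000029084, which has no symbol, accounted for 40.7% ± 7.40 (SD, n = 5) of counts in non-treated and 29.1% ± 5.65 (SD, n = 5) in dexfenfluramine valves (two-sided exact permutation test, p = 0.032). The groups overlapped in this share, since non-treated 3, at 28.5%, lay below dexfenfluramine 1, 4 and 5, at 33.3%, 30.4% and 34.3%. Non-treated 3 was the lowest of its group and dexfenfluramine 3, at 20.3%, the lowest of all these valves. The p-value is for all valves of both groups, and its dependence on either of these valves is not shown. Levels are given as CPM, the counts relative to the valve's total after TMM scaling, and always in the order of replicates 1 to 5. A log2 fold change is positive where the dexfenfluramine valves were higher and equals 1 for a doubling. A gene was called, and is said to have risen or fallen, when its p-value in edgeR's quasi-likelihood test, adjusted over all tested genes (Benjamini-Hochberg), fell under 0.05.

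The valves differed in how much heart muscle RNA they held, and this has to be seen before any gene. Of 30 cardiomyocyte markers, such as genes of the contractile filaments, 22 were tested and none was at 0 in all valves, TTN having the most counts among them. Their CPM added up to 154384, 116117, 54808, 166340.0 and 107160.0 in the non-treated valves and 77537, 57366, 13617, 66548 and 77556 after dexfenfluramine. Dexfenfluramine 3 held the least and non-treated 3 the least of its group, below 4 of the 5 dexfenfluramine valves, so that the groups overlapped at this valve while the remaining non-treated valves all lay above the dexfenfluramine valves. The 17 tested markers of valvular interstitial cells and fibroblasts, with most counts on VIM, ran the opposite way with a sum of 10953, 10916, 13169, 7782 and 9833 in the non-treated valves and 13749, 14367, 19797, 12683 and 13632 after dexfenfluramine. Dexfenfluramine 3 was the highest of all, and non-treated 3, the highest of its group, lay above 1 dexfenfluramine valve. In bulk RNA, fewer cells of a type and less RNA per cell cannot be told apart, nor can more of either. For these reasons the counts of the process lists stand beside those without dexfenfluramine 3, those without non-treated 3 and those of a fit that carries the mean log2 CPM of the 22 cardiomyocyte markers as a covariate, called the fit with the marker level. All 22 markers are themselves members of the muscle lists, and their level differed between the groups, so that this fit compares valves at a like marker level and does not separate muscle content from treatment.

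Markers of other cells were fewer and mostly overlapped between the groups. The 5 tested macrophage markers of 20 written summed to 54.8, 46.6, 54.6, 38.8 and 60.98 in the non-treated valves and 84.99, 92.4, 73.97, 72.7 and 87.7 after dexfenfluramine, with most counts on LAPTM5, and all dexfenfluramine valves lay above all non-treated valves. CD53 (ENSOCUG00000014420), a membrane protein of leukocytes, had 3.25, 3.79, 3.16, 1.18 and 2.99 CPM in the non-treated valves and 6.88, 7.41, 6.84, 5.78 and 6.89 CPM after dexfenfluramine, with no overlap (log2 fold change 1.22, standard error 0.26, adjusted p = 0.0018), and LAPTM5 (0.50, adjusted p = 0.0026) also rose, while the 3 remaining macrophage markers did not pass. Without dexfenfluramine 3, 3 of the 5 macrophage markers were called higher. By staining, the study saw no macrophage infiltration of the leaflets after any treatment. The 9 tested adipocyte markers, led by ADIPOQ, summed to 81.9, 53.9, 45.8, 126 and 48.8 in the non-treated valves and 102, 157, 8.64, 67.8 and 159 after dexfenfluramine, and dexfenfluramine 3 was the lowest of the 10 valves. KLB (ENSOCUG00000009086), a co-receptor for a fat-regulating hormone, had 1.44, 0.542, 1.05, 2.35 and 1.84 CPM in the non-treated valves and 3.44, 8.62, 0, 5.03 and 5.29 CPM after dexfenfluramine, and did not pass by edgeR (log2 fold change 1.65, standard error 0.63, adjusted p = 0.056) but did by DESeq2 (1.62, adjusted p = 0.027) and with upper-quartile scaling (1.69, adjusted p = 0.048). None of the 9 adipocyte markers passed, but without dexfenfluramine 3, 3 did, among them KLB (1.97, adjusted p = 0.0041) and CIDEA, a lipid droplet protein (1.80, adjusted p = 0.021), and 5 passed with the marker level in the fit. Of the 5 endothelial markers none passed, although PECAM1 did without non-treated 4 (-0.51, adjusted p = 0.025) and CD34 without non-treated 2 (0.40, adjusted p = 0.017) or dexfenfluramine 5 (0.38, adjusted p = 0.017). The smooth muscle markers TAGLN (1.36, adjusted p = 0.0063), MYH11 (-1.41, adjusted p = 0.0060) and MYOCD (-1.09, adjusted p = 0.013) went in different directions, 1 up and 2 down among 5 tested. None of the 3 passed with the marker level in the fit (1.10, adjusted p = 0.065, -0.46, adjusted p = 0.26 and -0.16, adjusted p = 0.485). CSPG4 of the same list did not pass (0.32, adjusted p = 0.051) except without non-treated 3 (0.35, adjusted p = 0.049) or dexfenfluramine 3 (0.37, adjusted p = 0.038) or 5 (0.36, adjusted p = 0.044). NCAM1 (-0.25, adjusted p = 0.011) and CHGB (-1.20, adjusted p = 0.036) fell among 7 markers of Schwann cells and neurons, but CHGB lost its call in 5 of the 10 leave-one-out fits, those without non-treated 1 or 3 or dexfenfluramine 2, 3 or 4, where adjusted p was at most 0.093, and neither passed with the marker level in the fit (-0.20, adjusted p = 0.079 and -1.09, adjusted p = 0.13), where SCN7A rose (1.03, adjusted p = 0.021; 0.48, adjusted p = 0.27 without it). GFAP, a further marker of Schwann cells and neurons, did not pass (0.82, adjusted p = 0.15) but was called higher without non-treated 3 (1.25, adjusted p = 0.038). The erythroid list kept GYPC alone, which did not pass (-0.44, adjusted p = 0.076) except without non-treated 3 (-0.52, adjusted p = 0.041) or dexfenfluramine 5 (-0.59, adjusted p = 0.020), and no lymphocyte or mast cell marker could be tested.

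**Figure D1:**
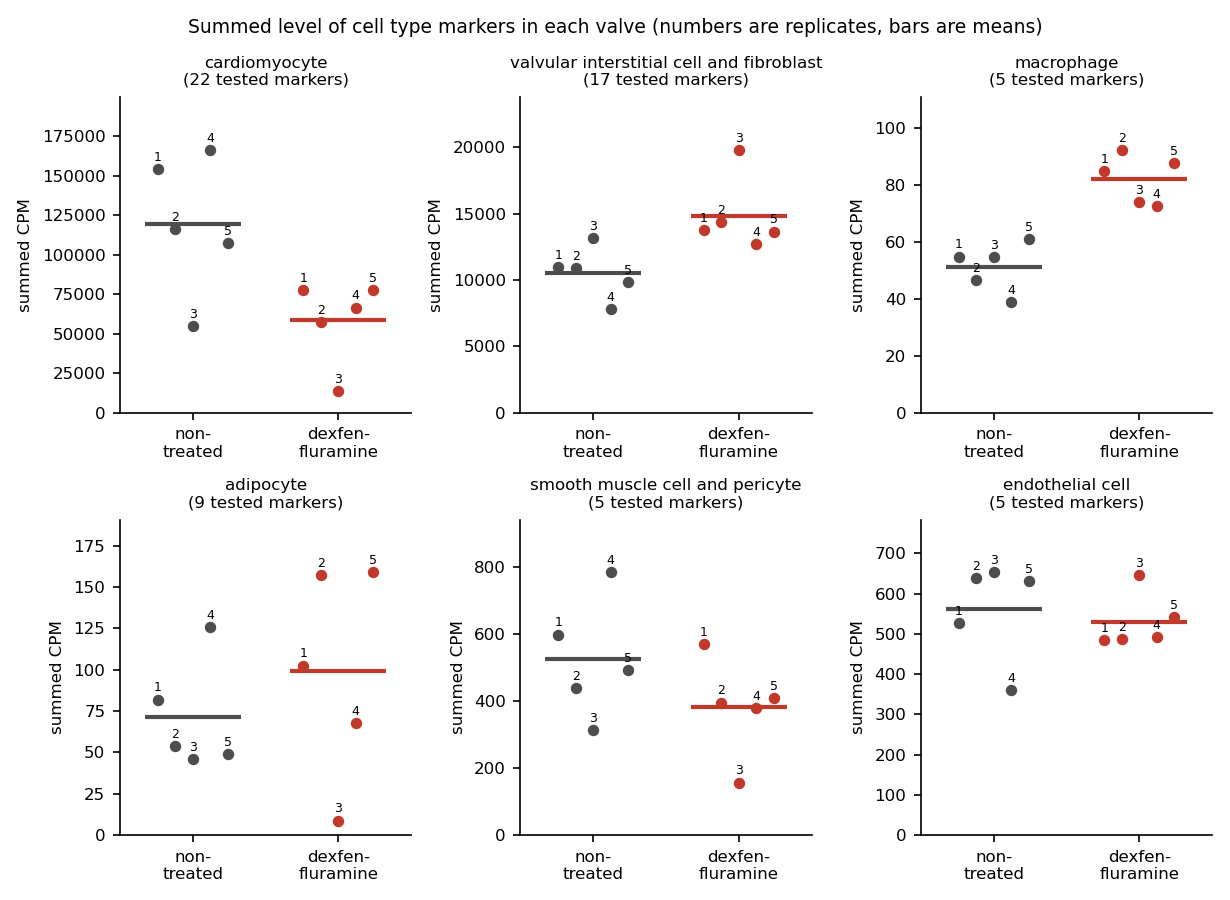
Summed CPM of the tested markers of 6 cell types in each of the 5 non-treated and 5 dexfenfluramine valves. Points carry the replicate number and bars are group means on axes that start at 0. Dexfenfluramine 3 is lowest for cardiomyocyte and highest for interstitial cell markers, and only the macrophage sums do not overlap between the groups.

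Dexfenfluramine went with change in a large part of the valve's transcripts, in both directions. Of 8683 tested genes, 2510 were called (28.9%), 1175 higher (13.5%) and 1335 lower (15.4%). Symbols came from the study's gene table, which lists genes the study selected on these same valves, so 2288 of the 3495 tested genes with a symbol were called (65.5%), 1099 higher (31.4%) and 1189 lower (34%), and no count in a list is independent evidence of its direction. The shares among genes with a symbol are therefore the ones to read each list against. For 1473 tested genes (17%) the 5 valves of each group did not overlap, and 1398 of these were called. Without dexfenfluramine 3, 2133 of 8754 genes were called (24.4%), 988 higher (11.3%) and 1145 lower (13.1%), and 1918 of the 3504 with a symbol (54.7%), 910 higher (26%) and 1008 lower (28.8%). In that fit 2016 of the 2510 genes (80.3%) were called again in the same direction. Without non-treated 3, 2805 of 8775 were called (32%), 1321 higher (15.1%) and 1484 lower (16.9%), and 2414 of the 3504 with a symbol (68.9%), 1142 higher (32.6%) and 1272 lower (36.3%), and 2295 of the 2510 (91.4%) were called again in the same direction. With the marker level in the fit, 1554 of 8683 were called (17.9%), 785 higher (9.04%) and 769 lower (8.86%), and 1324 of the 3495 with a symbol (37.9%), 660 higher (18.9%) and 664 lower (19%). Here 1265 of the 2510 (50.4%) were called again in the same direction. None of these fits called any of the 2510 in the opposite direction. The median log2 fold change of all tested genes was 0.03, 0.04 without dexfenfluramine 3 and 0.05 with the marker level in the fit, and that of genes with a symbol -0.03, -0.02 and 0.10. Medians of lists follow in this order of 3 fits, beside the rises and falls of the other fits, and the median of list members is no test.

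**Figure D2:**
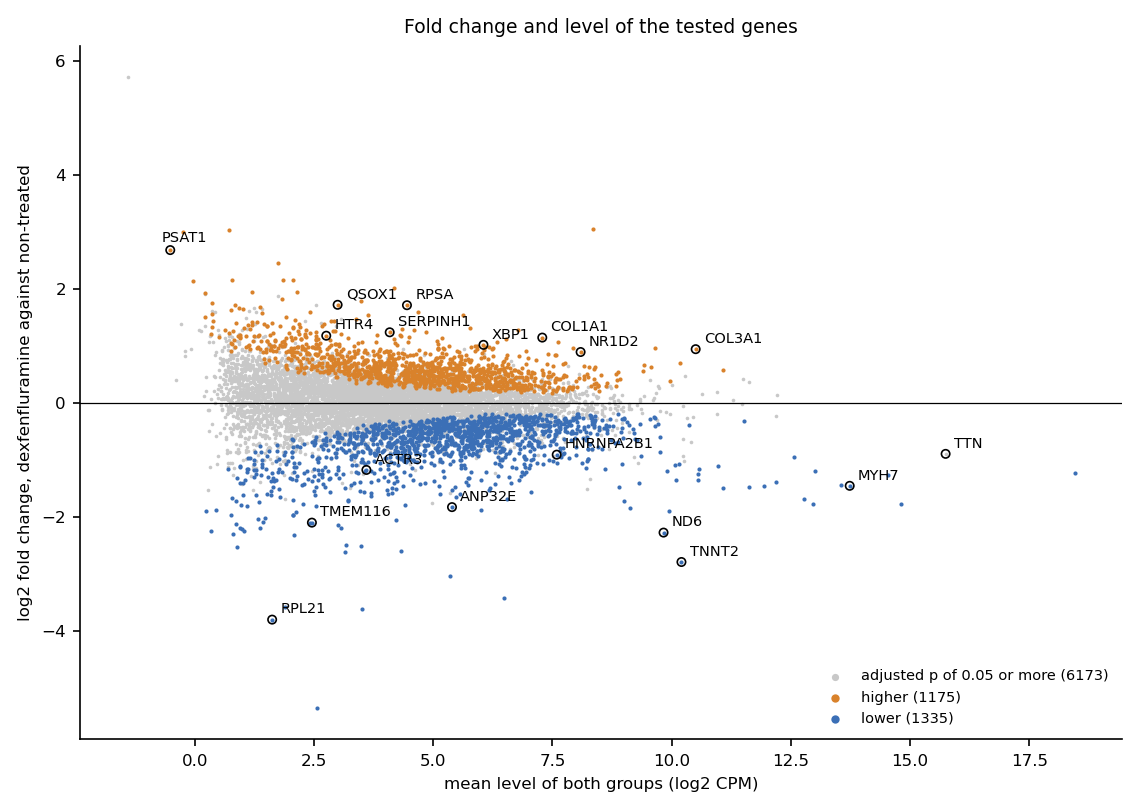
Log2 fold change of dexfenfluramine against non-treated valves (vertical) and mean log2 CPM of both groups (horizontal) for the 8683 tested genes. Orange marks the 1175 called higher, blue the 1335 called lower and grey the rest; circles mark 18 of the genes named in the text, from PSAT1 at 2.69, the highest of those circled, to RPL21 at -3.80.

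Genes of the contractile apparatus were lower after dexfenfluramine. Of the 22 markers behind the marker level, 15 belong to the sarcomere list and 7 to the calcium handling list, so these lists follow that level in part by construction. Of 41 tested members of the sarcomere and Z-disc list, which anchor and slide the muscle filaments, 24 fell, none rose and 17 did not pass, with a median of -1.01. TNNT2 (ENSOCUG00000015634), the troponin that ties the calcium switch to the thin filament, had 5331, 2817, 1469, 3574 and 2305 CPM in the non-treated valves and 465, 357, 102, 803 and 519 CPM after dexfenfluramine. Every dexfenfluramine valve lay below every non-treated valve, and the change exceeded that of the list (log2 fold change -2.79, standard error 0.46, adjusted p = 0.00019). With the marker level in the fit TNNT2 still fell (-1.67, adjusted p = 0.00093). TTN (ENSOCUG00000016777), the giant spring of the sarcomere, had 86498, 72283, 36419, 110639 and 67809 CPM in the non-treated valves and 54821, 39866, 10099.9, 46022 and 51043 CPM after dexfenfluramine. Non-treated 3 lay below all dexfenfluramine valves but dexfenfluramine 3, and the difference did not pass (log2 fold change -0.89, standard error 0.38, adjusted p = 0.080) unless non-treated 3 was left out (-1.06, adjusted p = 0.033) or the test was DESeq2 (-0.91, adjusted p = 0.029) or limma-voom (-1.03, adjusted p = 0.047), while with the marker level in the fit it was 0.17, adjusted p = 0.30. The slow myosin heavy chain MYH7 (-1.45, adjusted p = 0.018) fell, but not without non-treated 1 (-1.17, adjusted p = 0.061) or with the marker level in the fit (-0.16, adjusted p = 0.57), and the ventricular light chain MYL2 did not pass (-0.92, adjusted p = 0.23). NEXN, a Z-disc protein, and LMOD2, which lengthens thin filaments, fell with log2 fold changes of -1.40 (adjusted p = 0.00065) and -1.71 (adjusted p = 0.0011).

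Calcium handling, conduction and cardiac hormone genes had a median of -0.77, and how many fell depended on the valves kept. Of 29 tested members 9 fell and 2 rose, a share of falls under the 34% of genes with a symbol, but 18 fell without non-treated 3, above the 36.3% of that fit. The junction genes CDH2 (-0.95, adjusted p = 0.010), the cadherin of heart muscle, and DSC2 (-0.84, adjusted p = 0.0028), a desmosomal cadherin, fell, and neither passed with the marker level in the fit (-0.20, adjusted p = 0.28 and -0.38, adjusted p = 0.060). Both rises depended on the fit, since CACNA1G, a calcium channel, lost its call in 7 of the 10 leave-one-out fits (all but those without non-treated 3 or dexfenfluramine 4 or 5) and JUP in 6 (non-treated 1, 2 or 4, dexfenfluramine 1, 2 or 3), with log2 fold changes down to 0.77 and 0.39, and neither passed with the marker level in the fit (0.26, adjusted p = 0.67 and 0.27, adjusted p = 0.36). In the sarcomere list, 0 rose and 21 fell without dexfenfluramine 3, 0 rose and 30 fell without non-treated 3, and 4 rose and 3 fell with the marker level in the fit, with medians of -0.76, -1.21 and -0.07. In the calcium handling list, 0 rose and 4 fell without dexfenfluramine 3, 2 rose and 18 fell without non-treated 3, and 3 rose and 0 fell with the marker level in the fit, with medians of -0.52, -0.93 and 0.15. Among the 22 markers themselves 10 fell, none rose and the median was -0.996, and 14 fell without non-treated 3. The sarcomere and calcium handling lists, which hold all 22 markers, moved with the summed cardiomyocyte markers, and with those markers held level their medians lay at -0.07 and 0.15.

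Mitochondrial genes were lower as well. All 13 protein-coding genes of the mitochondrial genome fell (median -1.45), as did 9 of 16 tested nuclear subunits of complex I (median -0.65) and 9 of 17 of complexes II to V with cytochrome c (median -0.80), and none in these 3 lists rose in this fit. ND6 (ENSOCUG00000029113), a complex I subunit and the lone protein gene on the light strand of the mitochondrial genome, had 2225, 2008, 1005, 2937 and 1814 CPM in the non-treated valves and 472, 397, 132, 383 and 687 CPM after dexfenfluramine. The groups did not overlap, and dexfenfluramine 3 was the lowest valve (log2 fold change -2.27, standard error 0.33, adjusted p = 5.5e-05); reads of the opposite strand may count here, since the strand setting of the counts is not given. The complex I subunit ND4L fell too (log2 fold change -1.88, adjusted p = 0.00033), and so did the ATP synthase inhibitor ATPIF1 (-1.87, adjusted p = 0.00100), the nuclear-encoded subunits NDUFB3 (-1.47, adjusted p = 0.0013) and NDUFB6 (-1.14, adjusted p = 0.0018), and COX7B of complex IV (-1.21, adjusted p = 0.0040). Of these last 3 only NDUFB3 passed with the marker level in the fit (-0.62, adjusted p = 0.031). Without dexfenfluramine 3 the medians of the mitochondrially encoded, complex I and remaining complex lists were -1.27, -0.49 and -0.69, and with the marker level in the fit -0.51, -0.09 and -0.02. Of the 13 mitochondrially encoded genes, 12 fell without that valve and 4 with the marker level in the fit, none rising in either, and all 13 fell without non-treated 3. Of 16 complex I subunits 6 fell and none rose without that valve, 14 fell and none rose without non-treated 3, and 1 fell and 1 rose with the marker level. Of 17 subunits of the remaining complexes 6 fell and none rose without that valve, 12 fell and none rose without non-treated 3, and 1 fell and 3 rose with the marker level. The rises with the marker level included NDUFA4 (1.69, adjusted p = 0.00012; 0.63, adjusted p = 0.24 without the marker level) and ATP5J2 (0.77, adjusted p = 0.025; 0.03, adjusted p = 0.96).

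Fuel genes included falls and, fewer, rises. PPARGC1A (ENSOCUG00000014668), the coactivator that drives mitochondrial gene expression, had 115, 88.9, 57.6, 166 and 96.4 CPM in the non-treated valves and 60.03, 39.8, 15.1, 58.5 and 51.8 CPM after dexfenfluramine. Non-treated 3 overlapped the dexfenfluramine valves, and the fall passed in the main comparison (log2 fold change -1.21, standard error 0.31, adjusted p = 0.0055) but not with the marker level in the fit (-0.30, adjusted p = 0.12). PDHA1 (ENSOCUG00000014748), the catalytic subunit that feeds pyruvate into the citric acid cycle, had 293, 224, 109, 300.0 and 218 CPM in the non-treated valves and 126, 98.7, 56.2, 119 and 145 CPM after dexfenfluramine, non-treated 3 again lying among the treated valves (log2 fold change -1.07, standard error 0.28, adjusted p = 0.0076, -0.24, adjusted p = 0.34 with the marker level and -0.14, adjusted p = 0.42 with surrogate variables in the fit). PDK3 (ENSOCUG00000007418), a kinase that switches this enzyme off, had 4.33, 8.40, 8.25, 6.77 and 8.05 CPM in the non-treated valves and 16.1, 11.7, 12.8, 14.2 and 14.4 CPM after dexfenfluramine. All dexfenfluramine valves exceeded all non-treated valves (log2 fold change 0.92, standard error 0.18, adjusted p = 0.00098), whereas the related kinase PDK2 fell (-0.93, adjusted p = 0.0062; -0.33, adjusted p = 0.29 with the marker level in the fit). PHKB (ENSOCUG00000024506), a subunit of the kinase that starts glycogen breakdown, had 6.13, 6.77, 9.48, 6.47 and 6.67 CPM in the non-treated valves and 20.7, 19.5, 22.9, 21.6 and 21.00 CPM after dexfenfluramine. Non-treated 3 was the highest of its group and still far under every treated valve (log2 fold change 1.54, standard error 0.14, adjusted p = 4.5e-07). In the pyruvate dehydrogenase and citric acid cycle list 8 of 15 fell and 1 rose (medians -0.66, -0.53 and -0.03, with 1 up and 3 down without dexfenfluramine 3, 1 and 10 without non-treated 3 and 3 and 0 with the marker level). In fatty acid uptake and oxidation 8 of 17 fell and none rose (medians -0.70, -0.50 and -0.05, with 0 up and 5 down without dexfenfluramine 3, 2 and 10 without non-treated 3 and 2 and 2 with the marker level). The falls included the dehydrogenase ACADM (-0.90, adjusted p = 0.0039) and the hydratase ECHS1 (-1.06, adjusted p = 0.0018). Glycolysis and glycogen genes held 2 rises and 5 falls among 17 (medians -0.59, -0.42 and 0.12, with 3 up and 5 down without dexfenfluramine 3, 2 and 7 without non-treated 3 and 4 and 1 with the marker level). The falls were a smaller share than the 34% of genes with a symbol with all valves and a larger one than the 36.3% without non-treated 3. Hexokinase HK1 (-0.76, adjusted p = 0.0034) fell and enolase ENO1 (0.55, adjusted p = 1.8e-05) rose. GAPDH (-1.04, adjusted p = 0.0037) has near-identical copies in mammalian genomes, and its counts may mix them. Neither HK1 (-0.27, adjusted p = 0.12), GAPDH (-0.35, adjusted p = 0.15) nor ACADM (-0.28, adjusted p = 0.059) passed with the marker level in the fit.

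Genes that make fat and the list of AMPK subunits and partners held more rises than falls, in short lists, while no AMPK subunit rose. ACACA (ENSOCUG00000014453), which makes malonyl-CoA as the first committed step of fatty acid synthesis, had 54.5, 62.6, 61.8, 58.8 and 55.9 CPM in the non-treated valves and 95.3, 77.5, 80.5, 80.3 and 83.2 CPM after dexfenfluramine, with no overlap (log2 fold change 0.50, standard error 0.09, adjusted p = 0.00032). In its list of fat synthesis and storage 5 of 14 tested genes rose and 1 fell (medians 0.45, 0.48 and 0.53, with 5 up and 1 down without dexfenfluramine 3, 5 and 2 without non-treated 3 and 5 and 0 with the marker level), a share of rises near the 31.4% of genes with a symbol. Among them were the sterol sensor partner INSIG2 (0.65, adjusted p = 0.0012; 0.48, adjusted p = 0.060 with surrogate variables in the fit) and, lower, the acyltransferase MOGAT1 (-1.73, adjusted p = 0.0069), which did not pass with the marker level in the fit (-0.75, adjusted p = 0.29). CAMKK2 (ENSOCUG00000025635), a calcium-activated kinase upstream of AMPK, had 32.5, 28.99, 22.8, 19.4 and 30.6 CPM in the non-treated valves and 45.6, 48.6, 62.1, 49.8 and 40.7 CPM after dexfenfluramine. Every treated valve was above every non-treated valve (log2 fold change 0.88, standard error 0.16, adjusted p = 0.00053). MAP2K6 rose (1.01, adjusted p = 0.00064) and the catalytic subunit PRKAA1 fell (-0.41, adjusted p = 0.00083), while the regulatory subunit PRKAG2 did not pass (-0.46, adjusted p = 0.12) except without non-treated 3 (-0.60, adjusted p = 0.040). Over the leave-one-out fits PRKAG2 ran from -0.60 to -0.29. The AMPK list counted 4 rises and 1 fall among 7 (medians 0.35, 0.33 and 0.34, with 4 up and 1 down without dexfenfluramine 3, 4 and 2 without non-treated 3 and 4 and 1 with the marker level). Its other 2 rises, named after their values were seen, were CAMKK1 (0.99, adjusted p = 0.0010) and MAPK14 (0.35, adjusted p = 0.0047). Of the 4 rises, CAMKK2 and CAMKK1 are calcium-activated kinases, and MAP2K6 and MAPK14 are kinases of the p38 MAPK pathway. Of the 3 tested subunits of AMPK itself PRKAA1 fell and PRKAG2 and, named after its value was seen, PRKAA2 (-0.38, adjusted p = 0.26) did not pass. With at least 10 counts demanded in every valve the median of this list was -0.0191. PSAT1 (ENSOCUG00000007765), an enzyme of serine synthesis, was near the limit of detection with 0, 0.542, 0, 0.294 and 0.230 CPM in the non-treated valves and 2.15, 1.72, 1.44, 0.373 and 1.60 CPM after dexfenfluramine, and non-treated 2 lay above dexfenfluramine 4 (log2 fold change 2.69, standard error 0.71, adjusted p = 0.0074; 2.26, adjusted p = 0.069 with surrogate variables in the fit). Among the 9 genes of serine and one-carbon metabolism 2 rose and 4 fell (medians -0.33, -0.33 and -0.01, with 1 up and 2 down without dexfenfluramine 3, 3 and 5 without non-treated 3 and 1 and 1 with the marker level). The falls included the mitochondrial folate enzyme MTHFD2 (-1.09, adjusted p = 0.0076) and methionine synthase MTR (-0.33, adjusted p = 0.0032); MTHFD2 did not pass with the marker level in the fit (-0.43, adjusted p = 0.22). The rise of SFXN1 (0.42, adjusted p = 0.034), a serine carrier of mitochondria, was lost in 8 of the 10 leave-one-out fits, all but those without non-treated 3 or dexfenfluramine 5, at adjusted p up to 0.11, and with the marker level in the fit (0.19, adjusted p = 0.42). The summed cardiomyocyte markers moved with the falling metabolic lists as well, and adipocyte markers varied from valve to valve. Of the 14 tested fat synthesis genes 4 are themselves adipocyte markers, none of which passed, and the part of adipocyte markers in the fat synthesis result was not tested.

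**Figure D3:**
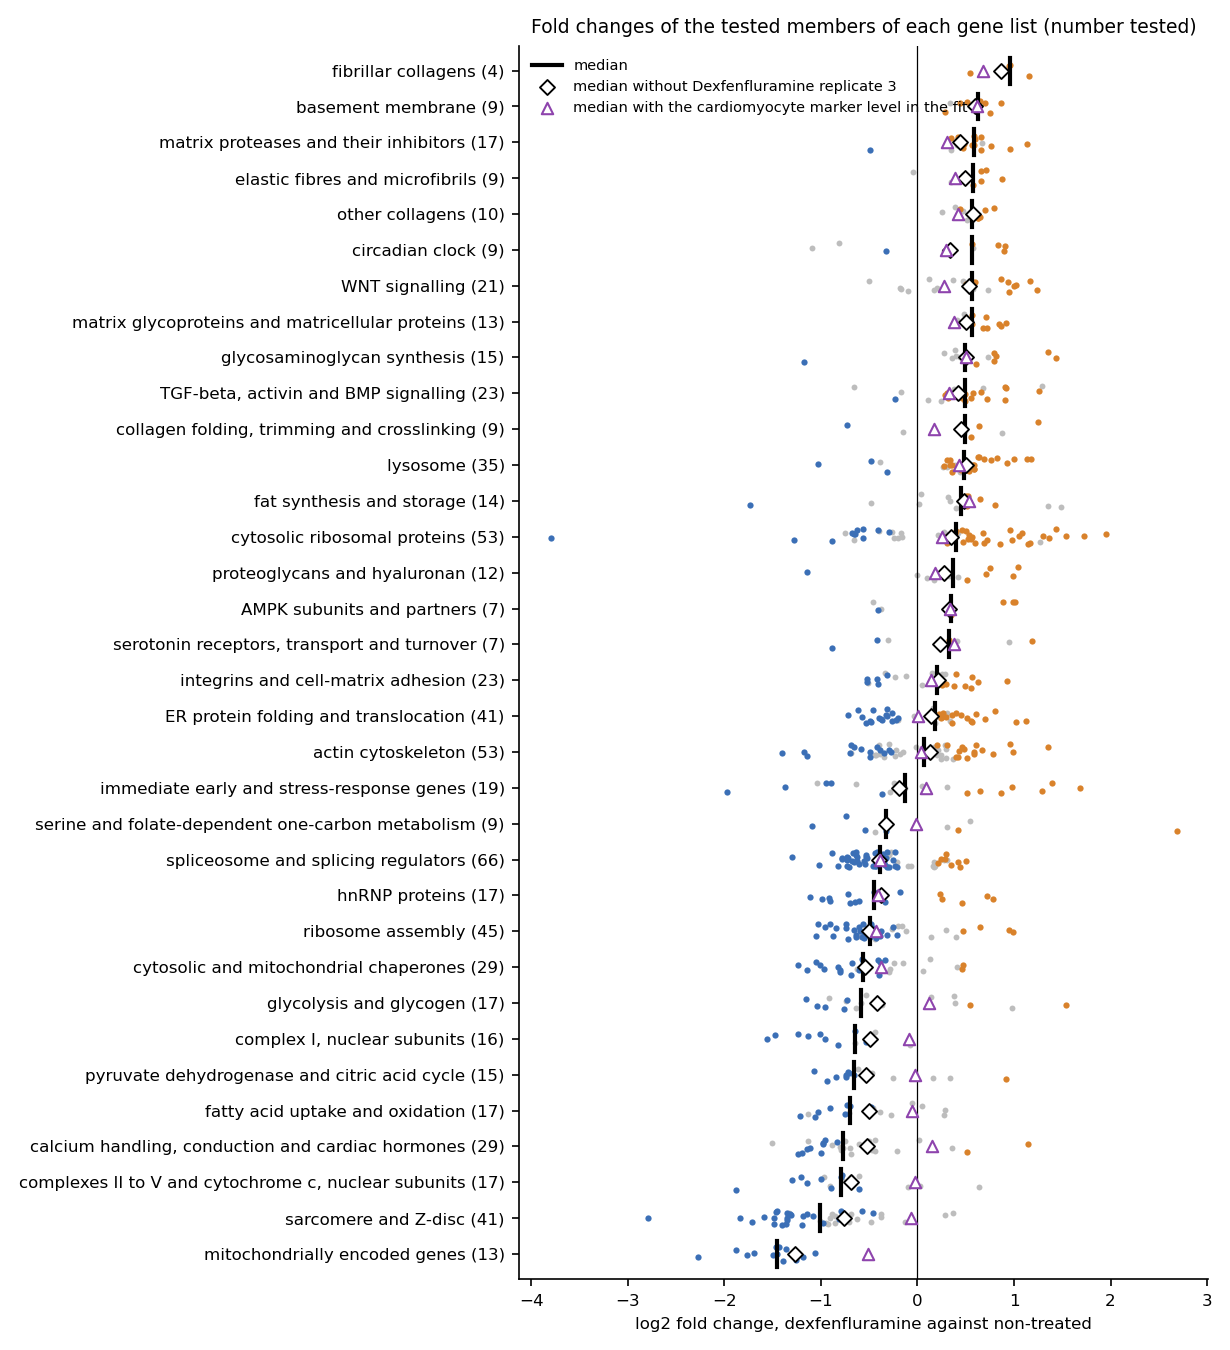
Log2 fold changes of the tested members of 34 gene lists; each point is a gene, orange for called higher, blue for called lower and grey for neither, with points spread vertically for sight. Black bars are list medians, diamonds the medians without dexfenfluramine 3 and triangles those with the cardiomyocyte marker level in the fit: the triangles of the muscle and mitochondrial lists lie near 0 except the mitochondrially encoded genes at -0.51, and those of the splicing, hnRNP and ribosome assembly lists lie close to their bars.

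Matrix genes were higher after dexfenfluramine. Over the 10 matrix lists together, 116 genes were tested, 66 rose and 9 fell, with a median of 0.50. Without dexfenfluramine 3, 48 rose and 6 fell (median 0.43), 75 rose and 9 fell without non-treated 3 (median 0.59), and with the marker level in the fit 30 rose and 5 fell (median 0.30). The summed interstitial cell and fibroblast markers were higher too, and 12 of those 17 markers are matrix genes themselves; 10 of the 17 rose and none fell (medians 0.71, 0.47 and 0.24, with 6 up and 0 down without dexfenfluramine 3, 11 and 0 without non-treated 3 and 5 and 0 with the marker level), and their part in the matrix result was not tested apart from the fit with the muscle marker level.

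All 4 tested fibrillar collagen chains, the rope-like core of the leaflet, rose (medians 0.96, 0.87 and 0.68, with 4 up and 0 down without dexfenfluramine 3, 4 and 0 without non-treated 3 and 4 and 0 with the marker level). COL1A1 (ENSOCUG00000012881), a chain of collagen type I, had 84.8, 86.98, 117, 146 and 87.2 CPM in the non-treated valves and 231, 321, 278, 174 and 159.7 CPM after dexfenfluramine. The lowest treated valve, dexfenfluramine 5, lay just above the highest non-treated valve, non-treated 4 (log2 fold change 1.15, standard error 0.24, adjusted p = 0.0014). COL3A1 (ENSOCUG00000014988), the chain of collagen type III, had 784, 1155, 1460.4, 923 and 899 CPM in the non-treated valves and 1655, 2295, 2441, 1581 and 2110.5 CPM after dexfenfluramine. Again the groups did not overlap, with non-treated 3 and dexfenfluramine 4 nearest to each other (log2 fold change 0.95, standard error 0.17, adjusted p = 0.00030). COL1A2 and COL5A2 rose by 0.96 (adjusted p = 0.00034) and 0.55 (adjusted p = 0.00082). Of 10 tested chains of other collagens 6 rose and none fell (medians 0.57, 0.58 and 0.42, with 5 up and 0 down without dexfenfluramine 3, 9 and 0 without non-treated 3 and 4 and 0 with the marker level), COL14A1, which sits on fibril surfaces, by 0.63 (adjusted p = 0.0033; 0.39, adjusted p = 0.15 with surrogate variables in the fit). SERPINH1 (ENSOCUG00000026029), the chaperone that escorts procollagen out of the ER, had 10.5, 9.75, 14.6, 7.35 and 12.2 CPM in the non-treated valves and 20.7, 29.8, 34.2, 22.4 and 23.9 CPM after dexfenfluramine. Each treated valve exceeded each non-treated valve (log2 fold change 1.25, standard error 0.19, adjusted p = 9.6e-05), and with the marker level in the fit SERPINH1 stood at 0.94, adjusted p = 0.0018. In the list of collagen folding and crosslinking 3 of 9 rose and 1 fell (medians 0.49, 0.46 and 0.18, with 2 up and 1 down without dexfenfluramine 3, 5 and 1 without non-treated 3 and 1 and 1 with the marker level). The rises were near the 31.4% of genes with a symbol with all valves and above the 32.6% without non-treated 3. They were under the 26% without dexfenfluramine 3 and under the 18.9% with the marker level. The rises included the lysyl hydroxylase PLOD2 (0.56, adjusted p = 0.0022) and, named after its value was seen, FKBP10 (0.64, adjusted p = 0.023), neither of which passed with the marker level in the fit (0.36, adjusted p = 0.052 and 0.23, adjusted p = 0.41) nor FKBP10 without dexfenfluramine 3 (0.50, adjusted p = 0.073), and the proline isomerase PPIB fell (-0.73, adjusted p = 0.00091).

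Proteoglycans, which hold water between the fibres, gave a mixed picture with 5 rises and 1 fall among 12 tested (medians 0.37, 0.28 and 0.19, with 3 up and 0 down without dexfenfluramine 3, 5 and 0 without non-treated 3 and 1 and 0 with the marker level). Their rises were a smaller share than the 26% of genes with a symbol without dexfenfluramine 3 and than the 18.9% with the marker level. VCAN (ENSOCUG00000002613), the large hyaluronan-binding proteoglycan of the leaflet, had 2666, 2908, 3033, 1210.5 and 2596 CPM in the non-treated valves and 3024, 2638, 5735, 2675 and 2576 CPM after dexfenfluramine. Non-treated 4 was far below and dexfenfluramine 3 far above the remaining valves, which overlapped, and the difference did not pass (log2 fold change 0.42, standard error 0.25, adjusted p = 0.22). The log2 fold change of VCAN was 0.14, adjusted p = 0.69 without dexfenfluramine 3 and -0.19, adjusted p = 0.55 with the marker level in the fit. HAPLN1 (ENSOCUG00000002630), which links hyaluronan to such proteoglycans and was also the sole tested chondrocyte marker, had 25.6, 64.2, 50.03, 16.2 and 39.8 CPM in the non-treated valves and 76.2, 60.1, 129.9, 83.5 and 44.2 CPM after dexfenfluramine. Dexfenfluramine 3 was highest and the groups overlapped (log2 fold change 0.99, standard error 0.31, adjusted p = 0.021). The call of HAPLN1 was lost without non-treated 1 (0.87, adjusted p = 0.061), non-treated 4 (0.79, adjusted p = 0.056) or dexfenfluramine 3 (0.73, adjusted p = 0.075), as with the marker level (0.34, adjusted p = 0.40) or surrogate variables (0.36, adjusted p = 0.40) in the fit or a fit of the 10 valves alone (0.99, adjusted p = 0.057). The hyaluronan synthase HAS2 (0.75, adjusted p = 0.016) and the hyaluronan-binding TNFAIP6 (1.04, adjusted p = 0.016) rose, TNFAIP6 not without dexfenfluramine 3 (0.77, adjusted p = 0.061), and neither with the marker level in the fit (0.42, adjusted p = 0.20 and 0.65, adjusted p = 0.20). HSPG2, the perlecan of basement membranes, rose (0.51, adjusted p = 0.0047), and the small proteoglycan LUM did not pass (0.10, adjusted p = 0.68). The fall of SPOCK1 (-1.15, adjusted p = 0.049) was lost in 8 of the 10 leave-one-out fits, all but those without non-treated 2 or dexfenfluramine 4, at adjusted p up to 0.11, and with the marker level in the fit (-1.20, adjusted p = 0.11). Enzymes that build glycosaminoglycan chains rose in 8 of 15 cases and fell in 1 (medians 0.49, 0.50 and 0.50, with 6 up and 1 down without dexfenfluramine 3, 11 and 1 without non-treated 3 and 4 and 0 with the marker level). EXTL2 (ENSOCUG00000002011), a glycosyltransferase of heparan sulphate synthesis, had 13.3, 11.4, 11.6, 14.4 and 12.4 CPM in the non-treated valves and 21.1, 19.5, 22.7, 23.7 and 21.96 CPM after dexfenfluramine, with no overlap (log2 fold change 0.79, standard error 0.12, adjusted p = 9.0e-05). NDST1, which sulphates heparan chains, rose (0.61, adjusted p = 0.00062), and CHST11, which sulphates chondroitin, fell (-1.18, adjusted p = 0.014) except without non-treated 5 (-0.93, adjusted p = 0.055) or with the marker level in the fit (-1.06, adjusted p = 0.084).

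The sheets and elastic parts of the matrix went up as well. Of the 9 tested basement membrane genes 4, among them COL4A5, were also counted among the other collagens. Of the basement membrane genes, whose sheet lies under the endothelium and around muscle cells, 8 of 9 rose and none fell (medians 0.62, 0.60 and 0.62, with 5 up and 0 down without dexfenfluramine 3, 6 and 0 without non-treated 3 and 5 and 0 with the marker level). COL4A5 (ENSOCUG00000010874), a chain of the network collagen of this sheet, had 56.3, 68.01, 85.5, 91.5 and 58.4 CPM in the non-treated valves and 109, 111, 111, 103 and 121 CPM after dexfenfluramine, all treated valves being higher (log2 fold change 0.62, standard error 0.14, adjusted p = 0.0024; 0.37, adjusted p = 0.058 with surrogate variables in the fit). Elastic fibre and microfibril genes rose in 6 of 9 cases, none falling (medians 0.57, 0.49 and 0.39, with 5 up and 0 down without dexfenfluramine 3, 7 and 0 without non-treated 3 and 3 and 0 with the marker level). Fibrillin FBN1 (0.71, adjusted p = 0.00018) and the TGF-beta binding protein LTBP1 (0.66, adjusted p = 0.00079) rose, while EFEMP1 showed no called difference (-0.05, adjusted p = 0.93). Among matrix glycoproteins 9 of 13 rose and none fell (medians 0.57, 0.51 and 0.38, with 8 up and 0 down without dexfenfluramine 3, 11 and 0 without non-treated 3 and 6 and 0 with the marker level). TNXB (ENSOCUG00000007056), a tenascin that spaces collagen fibrils, had 90.2, 91.6, 97.96, 64.4 and 101 CPM in the non-treated valves and 158, 224, 181, 158 and 119 CPM after dexfenfluramine, without overlap (log2 fold change 0.91, standard error 0.18, adjusted p = 0.00081). MGP, an inhibitor of calcification, rose by 0.68 (adjusted p = 0.0060; 0.46, adjusted p = 0.11 with the marker level in the fit), and RELN by 0.71 (adjusted p = 0.0014; 0.48, adjusted p = 0.056 with surrogate variables in the fit). Proteases and their inhibitors counted 13 rises and 1 fall among 17 (medians 0.58, 0.44 and 0.31, with 8 up and 1 down without dexfenfluramine 3, 12 and 1 without non-treated 3 and 2 and 1 with the marker level), the rises of the last fit being a smaller share than the 18.9% of genes with a symbol there. MRC2 (ENSOCUG00000017494), a receptor that takes up collagen fragments, had 58.8, 53.9, 77.2, 48.5 and 72.7 CPM in the non-treated valves and 119.8, 161, 172, 107 and 125 CPM after dexfenfluramine, and the lowest treated valve lay well above the highest non-treated valve (log2 fold change 1.13, standard error 0.17, adjusted p = 9.6e-05). The gelatinase MMP2 (0.60, adjusted p = 0.0051) and the inhibitor TIMP1 (0.66, adjusted p = 0.0064) rose together, neither passing with the marker level in the fit (0.32, adjusted p = 0.11 and 0.38, adjusted p = 0.14), and the proteoglycan-cleaving ADAMTS1 (-0.49, adjusted p = 0.0072) fell. The summed CPM of integrins and adhesion genes overlapped between the groups at means of 6286 ± 341 in non-treated and 5632 ± 358 in dexfenfluramine valves (SD, n = 5). The genes were divided, 9 of 23 up and 5 down (medians 0.21, 0.21 and 0.14, with 7 up and 3 down without dexfenfluramine 3, 10 and 6 without non-treated 3 and 4 and 3 with the marker level). Among them were rises of the docking proteins NEDD9 (0.55, adjusted p = 0.0015) and PARVA (0.38, adjusted p = 0.0035; 0.24, adjusted p = 0.079 with the marker level in the fit) and falls of BCAR1 (-0.52, adjusted p = 0.00031) and the integrin ITGB8 (-0.42, adjusted p = 0.0049).

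**Figure D4:**
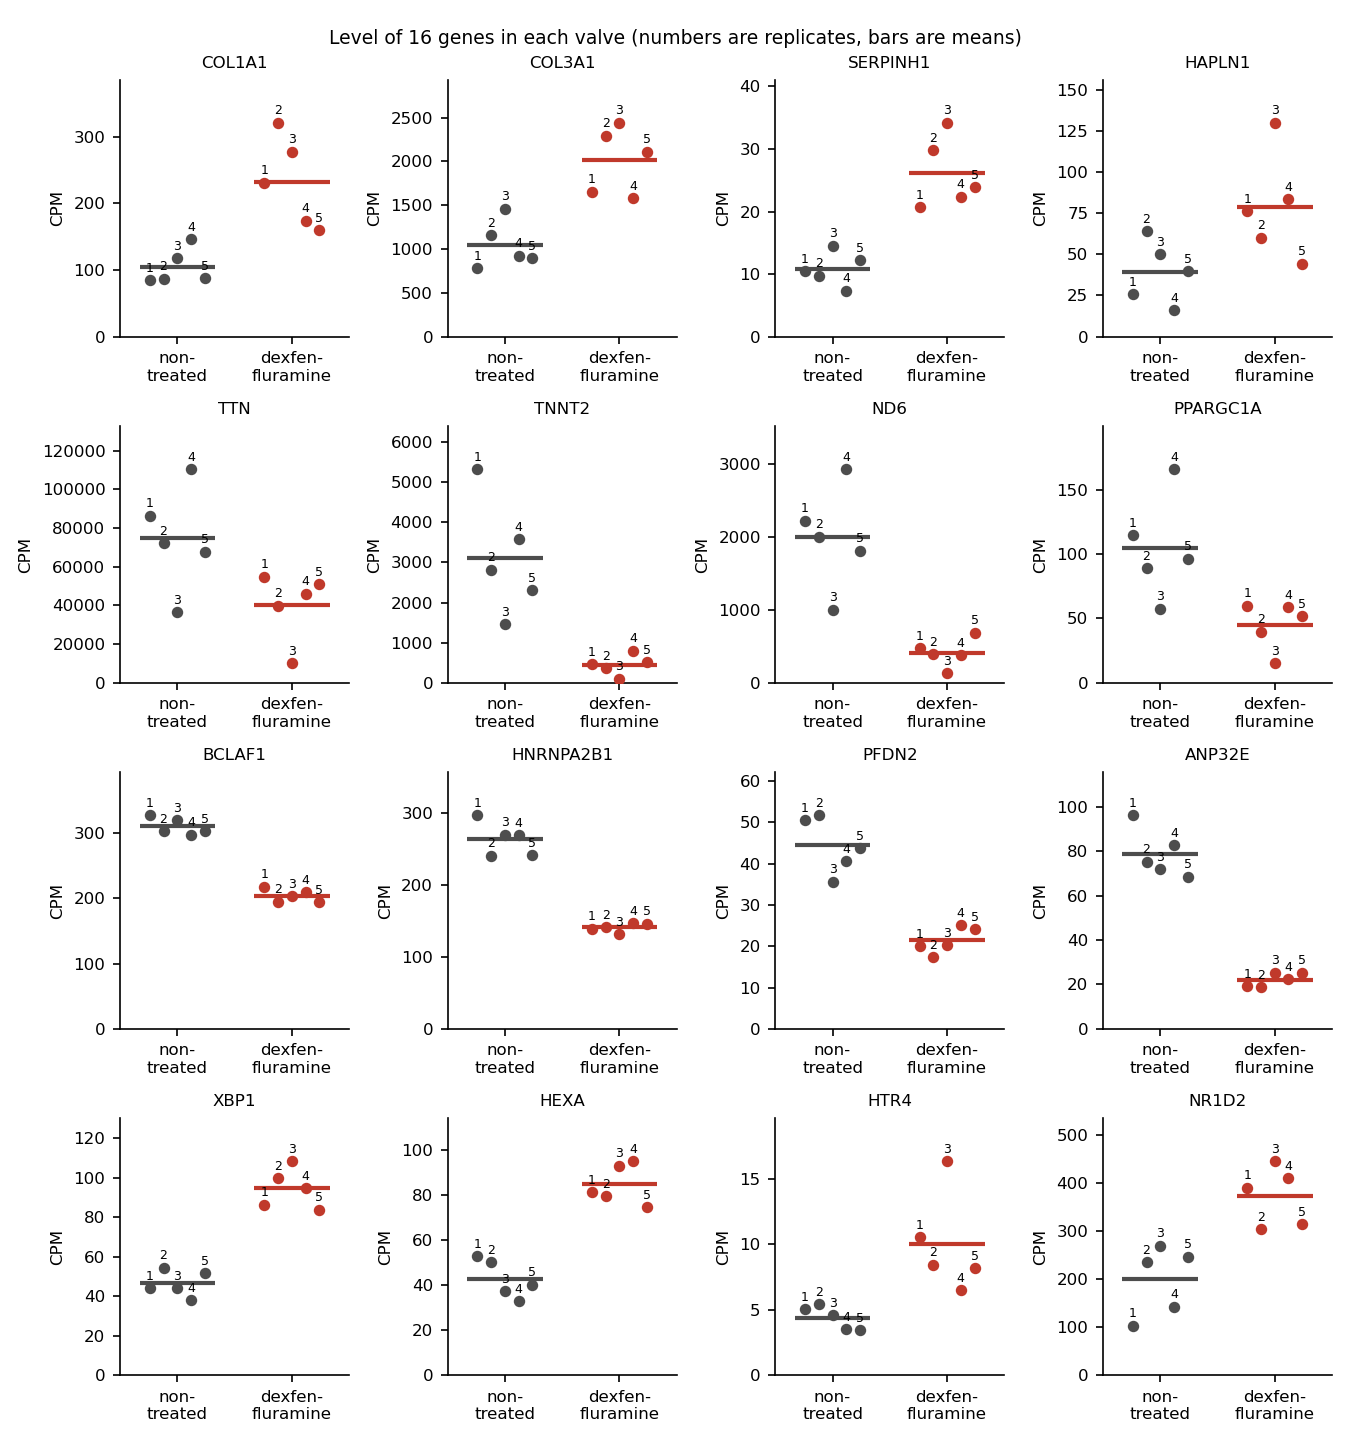
CPM of 16 genes in each of the 5 non-treated and 5 dexfenfluramine valves; points carry the replicate number, bars are group means and each axis starts at 0. The groups overlap for HAPLN1, TTN and PPARGC1A and are apart for the remaining 13 genes, and dexfenfluramine 3 is the lowest valve for TTN, TNNT2, ND6 and PPARGC1A.

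Lists of growth factor signalling held more rises than falls. In the list of TGF-beta, activin and BMP signalling, 15 of 23 tested genes rose and 1 fell (medians 0.49, 0.42 and 0.33, with 12 up and 2 down without dexfenfluramine 3, 14 and 1 without non-treated 3 and 6 and 1 with the marker level). TGFBR1 (ENSOCUG00000016292), the receptor kinase that phosphorylates SMAD proteins, had 51.9, 47.7, 62.7, 43.2 and 52.5 CPM in the non-treated valves and 67.1, 72.7, 80.5, 69.1 and 75.7 CPM after dexfenfluramine. The groups did not overlap and the difference was small (log2 fold change 0.50, standard error 0.12, adjusted p = 0.0038; 0.36, adjusted p = 0.055 with the marker level in the fit). Its partner TGFBR2 did not pass (0.25, adjusted p = 0.094) except without non-treated 3 (0.35, adjusted p = 0.012), and the SMAD anchor ZFYVE9 (0.32, adjusted p = 0.0014) rose. The receptor BMPR2 did not pass (-0.17, adjusted p = 0.063) but was called lower without non-treated 3 (-0.20, adjusted p = 0.031) or dexfenfluramine 3 (-0.20, adjusted p = 0.044). The single fall, ZFYVE16 (-0.23, adjusted p = 0.041), was lost in 7 of the 10 leave-one-out fits, those without non-treated 2, 3 or 5 or dexfenfluramine 1, 2, 4 or 5, at adjusted p up to 0.097. Of 21 WNT pathway genes 9 rose and none fell (medians 0.57, 0.53 and 0.28, with 8 up and 2 down without dexfenfluramine 3, 9 and 0 without non-treated 3 and 5 and 2 with the marker level). PTK7 (ENSOCUG00000002874), a co-receptor of planar polarity signalling, had 11.5, 18.4, 15.6, 10.9 and 17.9 CPM in the non-treated valves and 27.8, 46.01, 43.4, 25.5 and 25.6 CPM after dexfenfluramine, with no overlap (log2 fold change 1.16, standard error 0.21, adjusted p = 0.00047). WLS (ENSOCUG00000000532), which carries WNT proteins to the cell surface, had 30.7, 32.2, 28.1, 17.6 and 25.5 CPM in the non-treated valves and 47.1, 43.9, 60.3, 47.5 and 60.1 CPM after dexfenfluramine, again without overlap (log2 fold change 0.95, standard error 0.18, adjusted p = 0.00050). The falls without dexfenfluramine 3 and with the marker level were those of PYGO1 (-0.50, adjusted p = 0.059 with all valves; -0.64, adjusted p = 0.021 without dexfenfluramine 3; -0.83, adjusted p = 0.0061 with the marker level) and TCF7L2 (-0.17, adjusted p = 0.24; -0.27, adjusted p = 0.037; -0.40, adjusted p = 0.0047), both partners of beta-catenin in the nucleus; PYGO1 also passed without non-treated 1 (-0.65, adjusted p = 0.0099).

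Few genes of serotonin signalling could be read. No tested gene carried the symbol HTR2B, the receptor that norfenfluramine is known to activate, and since most tested genes have no symbol, whether it is among those could not be told. HTR4 (ENSOCUG00000017309), a serotonin receptor that raises cyclic AMP, had 5.05, 5.42, 4.56, 3.53 and 3.45 CPM in the non-treated valves and 10.5, 8.44, 16.4, 6.52 and 8.18 CPM after dexfenfluramine. All treated valves were higher, dexfenfluramine 3 most of all (log2 fold change 1.19, standard error 0.32, adjusted p = 0.0081), and the call was lost with the marker level (0.65, adjusted p = 0.16) or surrogate variables (0.85, adjusted p = 0.11) in the fit. SLC22A2 (ENSOCUG00000002542), an organic cation transporter that can carry serotonin, had 71.8, 40.4, 43.4, 52.9 and 51.3 CPM in the non-treated valves and 31.4, 26.2, 25.7, 27.6 and 29.3 CPM after dexfenfluramine. All treated valves were lower (log2 fold change -0.88, standard error 0.15, adjusted p = 0.00020). MAOA, which degrades serotonin, did not pass (0.41, adjusted p = 0.10) except without non-treated 3 (0.56, adjusted p = 0.030), and the G protein GNA13 (-0.42, adjusted p = 0.0031) fell. Without dexfenfluramine 3, MAOA was 0.23, adjusted p = 0.35. TGM2, which can attach serotonin to proteins, rose by 0.32 (adjusted p = 0.044), a call lost in 6 of the 10 leave-one-out fits, those without non-treated 2, 3, 4 or 5 or dexfenfluramine 1 or 5, at adjusted p up to 0.13, and with the marker level in the fit (0.38, adjusted p = 0.056). In all, 2 of the 7 tested genes rose and 2 fell, both smaller shares than the 31.4% and 34% of genes with a symbol (medians 0.32, 0.23 and 0.38, with 2 up and 2 down without dexfenfluramine 3, 2 and 2 without non-treated 3 and 1 and 2 with the marker level). The sign of this median depended on the setting, since it was -0.3206 with at least 10 counts demanded in every valve, -0.0069 with the replicate block over 10 valves and -0.0175 without the most abundant gene.

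Genes that process RNA were lower after dexfenfluramine, with list medians below the non-treated mean in all 5 treated valves. Of 66 tested spliceosome members and splicing regulators 46 fell, 8 rose and 12 did not pass; all 17 hnRNP proteins, which coat nascent transcripts, passed, 12 lower and 5 higher. BCLAF1 (ENSOCUG00000016363), a nuclear protein of mRNA processing complexes, had 328, 303, 319.5, 298 and 303 CPM in the non-treated valves and 218, 195, 203, 209 and 194 CPM after dexfenfluramine. The spread within each group was small beside the gap between them (log2 fold change -0.61, standard error 0.06, adjusted p = 2.0e-06). HNRNPA2B1 (ENSOCUG00000026859), an abundant hnRNP, had 297, 240.1, 269, 268 and 241 CPM in the non-treated valves and 139, 141, 131, 146 and 146 CPM after dexfenfluramine, the highest treated valve lying far under the lowest non-treated valve (log2 fold change -0.90, standard error 0.08, adjusted p = 4.5e-07). HNRNPLL (ENSOCUG00000010233), a splicing regulator best known from lymphocytes, went the opposite way with 15.9, 23.8, 25.5, 13.2 and 21.2 CPM in the non-treated valves and 31.4, 34.5, 43.02, 31.9 and 33.3 CPM after dexfenfluramine. Dexfenfluramine 3 stood above the remaining treated valves and the groups did not overlap (log2 fold change 0.79, standard error 0.14, adjusted p = 0.00034). HNRNPH3 (-0.99, adjusted p = 4.5e-07) and the splicing regulator RBM6 (-0.64, adjusted p = 3.1e-06) fell, whereas PTBP3 (0.72, adjusted p = 0.00087), the core spliceosome protein PRPF8 (0.35, adjusted p = 0.00050) and the helicase DDX39B (0.51, adjusted p = 5.1e-05) rose. The remaining hnRNP rises, named after their values were seen, were PTBP2 (0.46, adjusted p = 0.0011), HNRNPK (0.26, adjusted p = 0.013) and PCBP2 (0.23, adjusted p = 0.020), the last 2 not passing with the marker level in the fit (0.24, adjusted p = 0.064 and 0.17, adjusted p = 0.15). Medians were -0.39, -0.40 and -0.38 for the splicing list and -0.45, -0.37 and -0.41 for the hnRNP list. In the splicing list, 7 rose and 43 fell without dexfenfluramine 3, 9 rose and 45 fell without non-treated 3, and 5 rose and 34 fell with the marker level in the fit. In the hnRNP list, 5 rose and 10 fell without dexfenfluramine 3, 5 rose and 11 fell without non-treated 3, and 3 rose and 10 fell with the marker level in the fit. In single valves, the median difference from the non-treated mean ran from -0.51 to -0.32 after dexfenfluramine for the splicing list and from -0.55 to -0.29 for the hnRNP list, dexfenfluramine 3 lying within both ranges at -0.35 and -0.48.

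Most ribosome assembly factors fell, and ribosomal proteins held more rises than falls, with sums that overlapped between the groups. Among 45 tested assembly factors 31 fell and 4 rose (medians -0.49, -0.51 and -0.42, with 4 up and 29 down without dexfenfluramine 3, 4 and 31 without non-treated 3 and 5 and 25 with the marker level). The falls included RSL24D1 (-0.74, adjusted p = 4.9e-05), a factor of the large subunit, and the kinase RIOK3 (-0.57, adjusted p = 5.8e-05). The rises were those of EIF6 (0.99, adjusted p = 0.00044), which keeps the subunits apart, WDR36 (0.65, adjusted p = 8.6e-05), a nucleolar protein, and, named after their values were seen, POLR1C (0.95, adjusted p = 0.0071) and RPF1 (0.47, adjusted p = 0.033), RPF1 not passing without non-treated 3 (0.41, adjusted p = 0.077). Of 53 cytosolic ribosomal proteins 29 rose and 11 fell (medians 0.40, 0.35 and 0.26, with 26 up and 14 down without dexfenfluramine 3, 27 and 10 without non-treated 3 and 22 and 12 with the marker level). Their summed CPM was 6767 ± 463 (SD, n = 5) in non-treated and 6830.1 ± 645 (SD, n = 5) in dexfenfluramine valves, which overlapped, and their most abundant member RPL4, named after its value was seen, did not pass (-0.20, adjusted p = 0.14). RPSA (ENSOCUG00000022661), of the small subunit, had 12.3, 10.6, 11.6, 10.3 and 14.96 CPM in the non-treated valves and 35.7, 38.8, 46.6, 32.6 and 43.6 CPM after dexfenfluramine, with no overlap (log2 fold change 1.72, standard error 0.14, adjusted p = 2.2e-07). RPL21 (ENSOCUG00000027750), of the large subunit, had 6.13, 13.3, 13.2, 12.1 and 9.43 CPM in the non-treated valves and 0.430, 0.345, 1.08, 1.49 and 0.481 CPM after dexfenfluramine. Treated valves were close to the limit of detection and all under the lowest non-treated valve (log2 fold change -3.80, standard error 0.38, adjusted p = 1.3e-06). RPS7 and FAU rose by 1.96 (adjusted p = 2.7e-05) and 1.54 (adjusted p = 1.8e-05), and RPS23 fell (-0.63, adjusted p = 2.2e-05). Ribosomal protein genes have many near-identical copies, and how reads with several matches were counted is not known, so the direction of a single member is uncertain. ANP32E (ENSOCUG00000022805), a chaperone that removes the histone variant H2A.Z and among the 10 largest falls by the naming rule, had 96.3, 75.3, 71.98, 82.7 and 68.6 CPM in the non-treated valves and 19.1, 18.8, 25.4, 22.4 and 25.3 CPM after dexfenfluramine, with the groups far apart (log2 fold change -1.82, standard error 0.14, adjusted p = 9.1e-08).

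Lists of protein folding and clearance differed in their counts. Cytosolic and mitochondrial chaperones fell in 19 of 29 tested cases and rose in 2 (medians -0.57, -0.55 and -0.38, with 2 up and 16 down without dexfenfluramine 3, 1 and 19 without non-treated 3 and 3 and 11 with the marker level). PFDN2 (ENSOCUG00000002378), a subunit of prefoldin, which hands new actin and tubulin to the chaperonin, had 50.5, 51.8, 35.6, 40.6 and 43.7 CPM in the non-treated valves and 20.01, 17.4, 20.3, 25.2 and 24.2 CPM after dexfenfluramine, all treated valves being lower (log2 fold change -1.05, standard error 0.13, adjusted p = 1.0e-05). The co-chaperone DNAJB4 (-0.97, adjusted p = 1.3e-05) fell and PTGES3 (0.47, adjusted p = 0.0046) rose, and the rise of HSPE1 (0.48, adjusted p = 0.044) was lost in 8 of the 10 leave-one-out fits, all but those without non-treated 1 or dexfenfluramine 3, at adjusted p up to 0.13. Genes of folding and translocation in the ER held 17 rises and 17 falls among 41 (medians 0.18, 0.14 and 0.01, with 13 up and 14 down without dexfenfluramine 3, 15 and 14 without non-treated 3 and 11 and 7 with the marker level). XBP1 (ENSOCUG00000025470), the transcription factor that expands the secretory machinery, had 44.01, 54.5, 44.1, 37.9 and 51.5 CPM in the non-treated valves and 86.3, 99.6, 108, 94.7 and 83.8 CPM after dexfenfluramine. Each treated valve was well above each non-treated valve (log2 fold change 1.02, standard error 0.11, adjusted p = 3.0e-06). TMED7 (ENSOCUG00000010950), a cargo receptor of secretory vesicles, had 14.1, 11.1, 12.5, 9.41 and 13.3 CPM in the non-treated valves and 30.3, 23.8, 28.3, 23.3 and 25.97 CPM after dexfenfluramine, also without overlap (log2 fold change 1.12, standard error 0.14, adjusted p = 1.3e-05), and its relative TMED5 (-0.62, adjusted p = 0.00036) and the ER co-chaperone DNAJC1 (-0.72, adjusted p = 8.6e-05) fell. Lysosomal genes rose in 27 of 35 cases and fell in 3 (medians 0.49, 0.50 and 0.43). In this list, 22 rose and 2 fell without dexfenfluramine 3, 25 rose and 2 fell without non-treated 3, and 15 rose and 1 fell with the marker level in the fit. HEXA (ENSOCUG00000009190), which trims sugars from gangliosides, had 53.03, 50.1, 37.2, 32.9 and 40.3 CPM in the non-treated valves and 81.5, 79.8, 93.2, 95.2 and 74.9 CPM after dexfenfluramine, the groups being apart (log2 fold change 1.00, standard error 0.14, adjusted p = 3.1e-05). LAMP2 (ENSOCUG00000024954), a protein of the lysosomal membrane, had 47.98, 50.4, 59.5, 39.7 and 42.6 CPM in the non-treated valves and 90.6, 91.3, 98.8, 84.8 and 92.7 CPM after dexfenfluramine, again apart (log2 fold change 0.93, standard error 0.11, adjusted p = 9.3e-06), while the galactosidase GALC (-0.48, adjusted p = 0.0041; -0.33, adjusted p = 0.087 with the marker level in the fit) and the proton pump subunit ATP6V1F (-1.03, adjusted p = 0.00021) fell. Macrophage markers, of which LAPTM5 is also a lysosomal gene, were higher in the same valves, and their part in the lysosomal result was not tested.

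**Figure D5:**
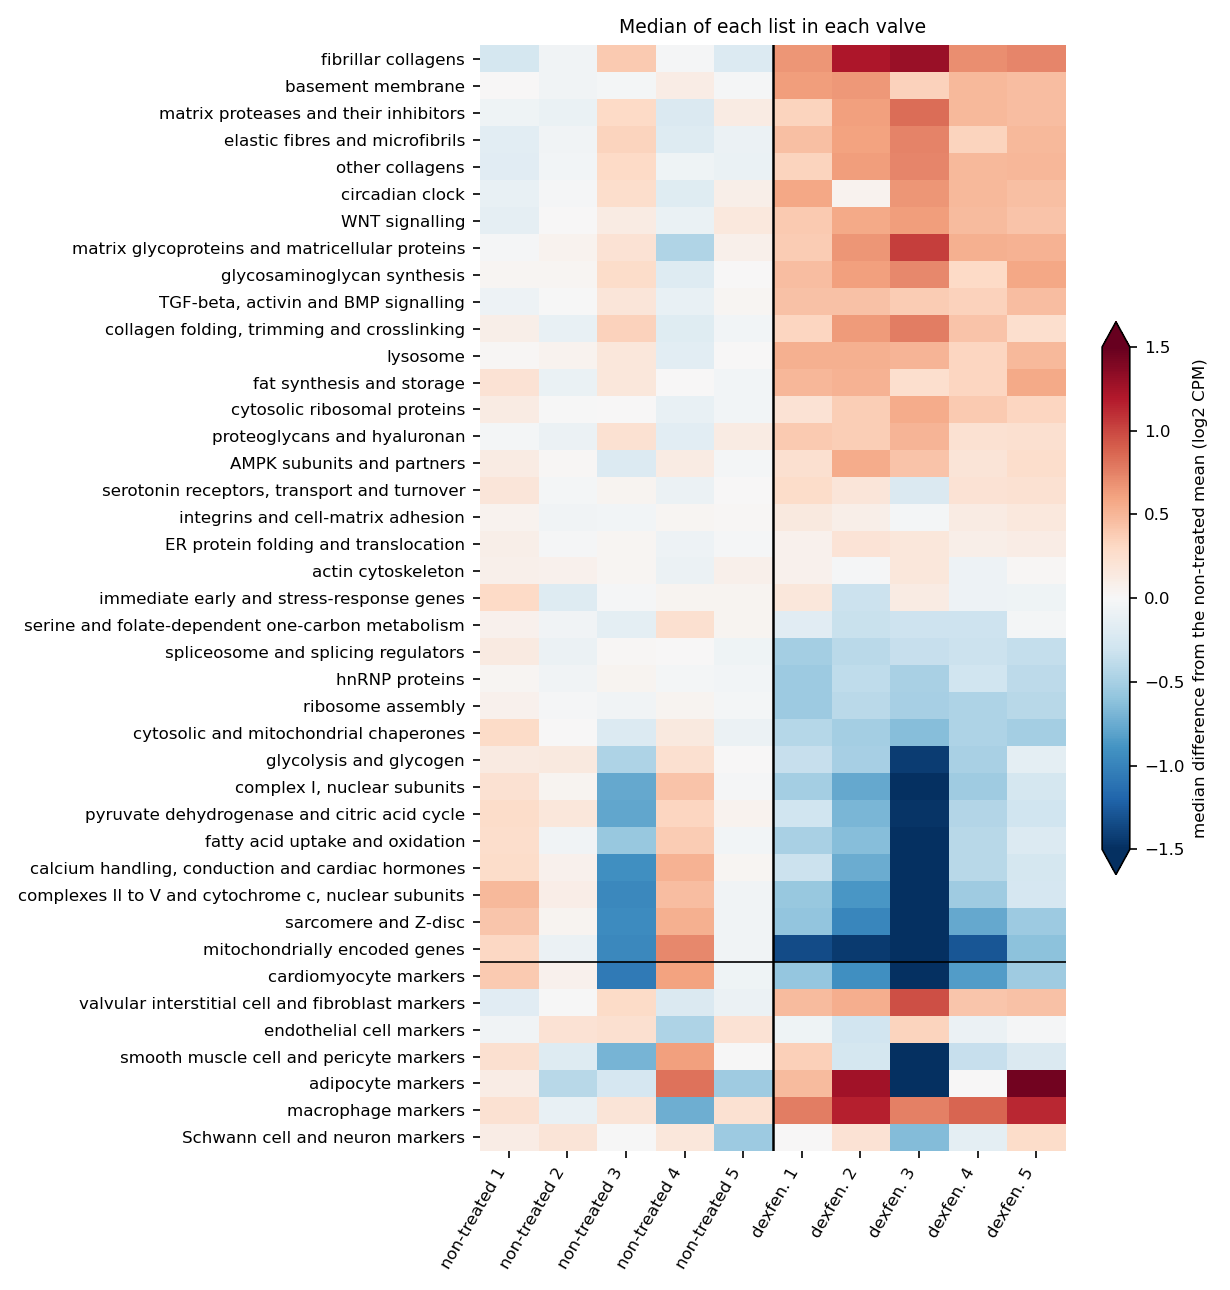
Median over the tested members of each list, in each valve, of the difference in log2 CPM from the non-treated mean; red is higher and blue lower, colours saturate at 1.5 in either direction, and cell type markers stand under the horizontal line. Dexfenfluramine 3 and, less so, non-treated 3 are low in the muscle and mitochondrial lists, whereas splicing, hnRNP and ribosome assembly lists are lower in all 5 treated valves.

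Actin genes were divided in number, with 16 of 53 tested up and 14 down, both smaller shares than the 31.4% and 34% of genes with a symbol (medians 0.07, 0.13 and 0.04, with 10 up and 16 down without dexfenfluramine 3, 19 and 14 without non-treated 3 and 8 and 11 with the marker level), but their sum was lower. Their CPM, with most counts on SPTBN1, added up to 15461, 14705, 13803, 15469 and 14706 in the non-treated valves and 12412, 12322, 11952, 12502 and 12604 after dexfenfluramine, and every dexfenfluramine valve lay below every non-treated valve. ACTR3 (ENSOCUG00000024677), a core subunit of the complex that branches actin filaments, had 21.6, 15.7, 15.8, 17.4 and 19.6 CPM in the non-treated valves and 8.61, 6.38, 7.74, 10.4 and 6.73 CPM after dexfenfluramine, all treated valves being lower (log2 fold change -1.17, standard error 0.15, adjusted p = 1.7e-05). TAGLN2 (ENSOCUG00000022296), an actin-binding protein, had 56.3, 58.8, 46.3, 36.8 and 56.6 CPM in the non-treated valves and 95.96, 101, 139, 80.9 and 88.00 CPM after dexfenfluramine, all treated valves being higher (log2 fold change 0.99, standard error 0.16, adjusted p = 0.00014). CYFIP1, which links Rac to actin branching, rose (0.60, adjusted p = 0.00024), and the actin-severing DSTN fell (-0.49, adjusted p = 7.1e-05). The largest rises by the naming rule also included QSOX1 (ENSOCUG00000005175), an enzyme that forms disulphide bonds in secreted proteins, with 5.05, 3.52, 6.14, 2.65 and 3.91 CPM in the non-treated valves and 18.1, 15.3, 17.1, 11.2 and 10.6 CPM after dexfenfluramine and no overlap (log2 fold change 1.73, standard error 0.23, adjusted p = 2.3e-05). UBE2E3 (ENSOCUG00000029359), a ubiquitin-conjugating enzyme, had 5.41, 7.04, 7.20, 5.88 and 5.06 CPM in the non-treated valves and 17.00, 16.4, 17.1, 19.2 and 16.99 CPM after dexfenfluramine, also apart (log2 fold change 1.49, standard error 0.14, adjusted p = 4.5e-07). The naming rule admits only called genes without overlap, so for the largest rises and falls, here and above, the lack of overlap was set by the choice. S100A6, TPRA1, OSGIN1 and PLSCR3 rose by 1.80, 1.69, 1.68 and 1.58 (largest adjusted p = 0.0093), OSGIN1, a member of the stress gene list, not passing with the marker level in the fit (1.49, adjusted p = 0.051) and PLSCR3 not with surrogate variables (1.11, adjusted p = 0.066). Further falls were those of the developmental transcription factor IRX5 (-2.21, adjusted p = 0.0018), the scaffold PDZK1 (-2.19, adjusted p = 0.0018; -1.68, adjusted p = 0.057 with surrogate variables in the fit), TMEM116 (-2.10, adjusted p = 0.00056) and the growth factor carrier FGFBP1 (-2.18, adjusted p = 0.033). FGFBP1 lost its call in 5 of the 10 leave-one-out fits, those without non-treated 2 or 4 or dexfenfluramine 3, 4 or 5, at adjusted p up to 0.10, and neither it (-0.78, adjusted p = 0.52) nor IRX5 (-1.22, adjusted p = 0.088) passed with the marker level in the fit. IRX5, PDZK1 and FGFBP1 were near the limit of detection after dexfenfluramine, at means of 0.83, 0.82 and 1.14 CPM. OSGIN1 was near it in the non-treated valves, at a mean of 0.98 CPM. The epicardial marker TBX18 (0.78, adjusted p = 0.012) rose and the melanocyte marker MITF (-0.71, adjusted p = 0.012) fell, each the sole tested gene of its list, and neither passed with the marker level in the fit (0.43, adjusted p = 0.20 and -0.18, adjusted p = 0.40).

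Whether these changes were particular to dexfenfluramine was tested directly against the pergolide valves, at 20 against 0.5 mg/kg per day, so the doses differ. Pergolide is an ergot derivative and dexfenfluramine an amphetamine derivative, given in the same way for the same time. No gene of 8683 had an adjusted p under 0.05 between the drugs by edgeR (0%), 613 had an unadjusted p under 0.05, and DESeq2 called 4 and limma-voom 0. Those of DESeq2, all at adjusted p = 0.042, were FGFBP1 (-2.79; -2.78, adjusted p = 0.40 by edgeR) and, named after their values were seen, the water channel AQP1 (0.60; 0.59, adjusted p = 0.33 by edgeR), the NF-kappaB inhibitor TNFAIP3 (0.65; 0.64, adjusted p = 0.33 by edgeR) and the small RNA SCARNA20 (1.62; 1.61, adjusted p = 0.35 by edgeR). Of the 167 named genes 22 had an unadjusted p under 0.05, none of which passed the adjustment. COL4A5 differed by 0.47, standard error 0.14, adjusted p = 0.58, CAMKK2 by 0.44, standard error 0.16, adjusted p = 0.65, and HTR4 by 0.64, standard error 0.29, adjusted p = 0.70, in each case higher after dexfenfluramine. LUM differed by -0.58, standard error 0.17, adjusted p = 0.58, and KLB by -1.28, standard error 0.47, adjusted p = 0.65, higher after pergolide. For COL1A1, XBP1 and BCLAF1 the differences were 0.08, standard error 0.24, adjusted p = 0.95, 0.09, standard error 0.11, adjusted p = 0.87 and 0.04, standard error 0.06, adjusted p = 0.89, and such a p does not show that the drugs act alike. The drugs share their 5 non-treated valves, against which COL1A1 stood at 1.07 after pergolide and 1.15 after dexfenfluramine, XBP1 at 0.94 and 1.02, and BCLAF1 at -0.65 and -0.61.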

How the data were processed

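The authors counted reads per Ensembl gene, and the deposited values are those counts, whole numbers without normalization, for 23669 genes in 20 tricuspid valves. By the methods, reads were aligned to the rabbit genome with TopHat2 2.1.1 and counted with HTSeq in union mode; the release of the annotation, the strand option and the treatment of reads with several matches are not stated. Columns were matched to groups by letter and number, the letter w being taken as control. Symbols came from the study's gene table (3563 matched).

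Counts were scaled by TMM and filtered by filterByExpr over the 4 groups in edgeR 4.0.16 (R 4.3.3), leaving 8683 genes, and all 20 valves were fitted with the quasi-likelihood test, adjusted by Benjamini-Hochberg at 0.05. Standard errors are the log2 fold change divided by the square root of F. Log2 CPM used a prior count of 2. Single values per valve were compared by exact permutation of 5 against 5 (252 divisions, smallest p 0.0079) with numpy 2.4.6 in Python 3.11.15.

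Named genes were by size of change, the first 10 rises and 10 falls of called genes that had a symbol, no overlap and a mean log2 CPM of at least 1, small RNAs apart; the 2 members of each list with the smallest p in each direction; and 26 genes named whatever their values. The 34 lists of processes and 12 of cell type markers, and the members, were chosen with earlier results of these data known. Alternatives were DESeq2 1.42.0, limma-voom (limma 3.58.1), svaseq surrogate variables (sva 3.50.0, 4 found), RLE and upper-quartile scaling, a minimum of 10 counts in each valve, no filter, only the 10 valves, the replicate number as a block, the cardiomyocyte marker level as a covariate, a threshold of 0.01, each valve left out, the most abundant gene left out, and both replicates 3 left out, the last chosen after seeing the data. Genes without a symbol were tested but are not named, apart from the most abundant one.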

Additional observations from a re-analysis of the deposited data

Results flagged for a closer look

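In 108 groups of 5 valves, over the genes and sums printed valve by valve, 7 held a valve whose distance from its nearest neighbour was large against the range of its group; chance marks about 1 in 20 such groups. VCAN was marked in both groups, at 1210.5 CPM in non-treated 4 against 2596 to 3033 in the remaining non-treated valves, and at 5735 CPM in dexfenfluramine 3 against 2576 to 3024. Dexfenfluramine 3 also stood apart with 43.0 CPM of HNRNPLL against 31.4 to 34.5, and with a summed CPM of interstitial cell and fibroblast markers of 19797 against 12683 to 14367. PHKB had 9.48 CPM in non-treated 3 against 6.13 to 6.77. ARNTL had 21.3 CPM in dexfenfluramine 5 against 2.42 to 5.69. UBE2E3 had 19.2 CPM in dexfenfluramine 4 against 16.4 to 17.1.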

How the results depend on the processing

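The count of 2510 called genes was 1500 with svaseq surrogate variables (731 higher, 769 lower), 1554 with the cardiomyocyte marker level (785 higher, 769 lower) and 1409 at a threshold of 0.01 (624 higher, 785 lower), and it lay between 1954 and 2608 under the remaining alternatives that kept all 10 valves. Leaving out each valve in turn gave 2040 to 2805 called genes, 912 to 1321 higher and 1096 to 1484 lower; without both replicates 3 it was 2462. DESeq2 called 4 genes and limma-voom 0 between dexfenfluramine and pergolide, where edgeR called 0. Of 134 called named genes, 112 were tested in all 24 alternatives, and 74 of these kept direction and threshold in each; of the 22 tested in fewer, 8 kept both wherever they were tested. In all fits that left out 1 valve 120 of the 134 did; with the marker level 43 were lost, and with surrogate variables 40 were lost and 1 changed sign. The cause of these shifts was not tested. The replicate number is no pairing by the labels: correlations of same-numbered valves were 0.061, -0.032, 0.492, 0.206 and -0.126, and blocking on it gave 2365 called genes over 20 valves and 2354 over 10.

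Log2 fold changes that changed sign under an alternative, and list medians that did so by more than the spread between valves, follow by setting with their value there. By DESeq2, ATP5J2 was -0.0022. With the block over 10 valves, ATP5J2 was -0.0268, EFEMP1 0.0605, SPOCK2 0.0167 and the median of serotonin genes -0.0069. With surrogate variables, CACNA1G was -0.0339, MYL2 0.54, NFIL3 0.12, PDLIM3 -0.21, PRKAG2 0.0265, TTN 0.0502, the median of complexes II to V 0.0293, the median of pyruvate dehydrogenase 0.0299, the median of glycolysis 0.13, the median of one-carbon metabolism 0.0408 and the median of calcium handling 0.0807. By limma-voom, EFEMP1 was 0.0935. With upper-quartile scaling, EFEMP1 was 0.0006 and SPOCK2 0.0408. With the marker level, MYL2 was 0.57, PDLIM3 -0.21, PRKAG2 0.0917, TTN 0.17, VCAN -0.19, the median of glycolysis 0.12, the median of calcium handling 0.15, the median of stress genes 0.0941 and the median of cardiomyocyte markers 0.13. Without a filter, SPOCK2 was 0.0071. With the block over 20 valves, SPOCK2 was 0.0181. Without both replicates 3, SPOCK2 was 0.0245. With at least 10 counts in every valve, the median of serotonin genes was -0.32, the median of AMPK partners -0.0191 and the median of actin -0.088. Without the most abundant gene, the median of serotonin genes was -0.0175.

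Over the fits that left out a valve, ATP5J2 -0.15 to 0.19, EFEMP1 -0.30 to 0.11, SPOCK2 -0.13 to 0.13 and the median of actin -0.10 to 0.13 crossed 0. Of 943 list medians under alternatives, 882 moved by less than the spread between valves, 17 of them across 0, and 61 by more, 15 of them across 0. Those 17 were smooth muscle markers 0.0744 with surrogate variables and 0.33 with the marker level; Schwann cell and neuron markers 0.22 and 0.22 in the same fits, 0.17 with only the 10 valves, 0.17 with the block over 10 and 0.16 without non-treated 1; stress genes 0.0214 with surrogate variables; actin -0.0056 without non-treated 3; and endothelial markers 0.0324 with surrogate variables, 0.0355 with upper-quartile scaling, 0.0027 without a filter, and 0.0094 to 0.0626 in 5 fits that left out a valve. Depth limits genes under about 1 CPM, where a count of a few reads sets the level.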

Other observations

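Clock and stress genes were fixed as lists but not yet described. Of 9 tested clock genes 4 rose and 1 fell (medians 0.57, 0.33 and 0.30, with 4 up and 0 down without dexfenfluramine 3, 4 and 2 without non-treated 3 and 3 and 0 with the marker level). NR1D2 (ENSOCUG00000009329), a repressor in the clock loop, had 102, 234, 269, 143 and 247 CPM in the non-treated valves and 390.1, 303, 445, 409 and 314 CPM after dexfenfluramine, without overlap (log2 fold change 0.90, standard error 0.21, adjusted p = 0.0028). PER1 (0.91, adjusted p = 0.010) and HLF (0.84, adjusted p = 0.0018) also rose, PER1 not with the marker level in the fit (0.70, adjusted p = 0.084). ARNTL (ENSOCUG00000005940), an activator of the loop, had 20.9, 5.42, 22.6, 20.6 and 9.20 CPM in the non-treated valves and 3.23, 5.69, 3.42, 2.42 and 21.3 CPM after dexfenfluramine, low in 4 of the 5 treated valves and in 2 non-treated valves (log2 fold change -1.09, standard error 0.51, adjusted p = 0.11), and passed without dexfenfluramine 5 (-2.07, adjusted p = 0.0022) or by limma-voom (-1.37, adjusted p = 0.042). NFIL3 did not pass (-0.81, adjusted p = 0.10) except without non-treated 3 (-0.997, adjusted p = 0.044), and CLOCK fell (-0.32, adjusted p = 0.034) but not without non-treated 4 (-0.29, adjusted p = 0.073) or dexfenfluramine 2, 3 or 4, where adjusted p was at most 0.093, or with the marker level in the fit (-0.13, adjusted p = 0.44). Over the leave-one-out fits NFIL3 ran from -0.997 to -0.50. The hour at which each valve was taken is not in the labels. Immediate early and stress genes went both ways, 7 of 19 up and 5 down, the rises near the 31.4% of genes with a symbol and the falls under the 34% (medians -0.12, -0.19 and 0.09, with 6 up and 2 down without dexfenfluramine 3, 7 and 6 without non-treated 3 and 5 and 1 with the marker level). TSC22D3 (ENSOCUG00000012397), which glucocorticoids induce, had 59.2, 44.7, 49.3, 39.4 and 49.2 CPM in the non-treated valves and 114, 91.3, 117, 78.8 and 75.5 CPM after dexfenfluramine, the groups being apart (log2 fold change 0.98, standard error 0.15, adjusted p = 0.00012). ZFP36L2, which destabilizes mRNA, rose (1.39, adjusted p = 0.00085), and the growth arrest gene GADD45A (-0.89, adjusted p = 0.012) and the cholesterol hydroxylase CH25H (-1.37, adjusted p = 0.0019) fell, GADD45A not with the marker level in the fit (-0.30, adjusted p = 0.33).

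Small RNAs with a symbol were named apart, since short transcripts are captured unevenly by such libraries and often lie inside introns of other genes, whose reads can count on them. Of 36 tested, 11 rose and 18 fell, the rises near the 31.4% of genes with a symbol and the falls above the 34%. The largest rises were those of SNORA74 (3.04, adjusted p = 5.5e-05), SNORA73B (2.167, adjusted p = 0.0013) and SCARNA20 (2.16, adjusted p = 0.00075), and the largest falls those of SNORND104 (-2.32, adjusted p = 0.00053), SNORD99 (-2.13, adjusted p = 0.00082) and SNORD65 (-2.02, adjusted p = 0.017). SNORA74 (ENSOCUG00000019393), a guide for pseudouridylation, had 0.361, 0.271, 0.702, 1.18 and 0 CPM in the non-treated valves and 5.81, 4.31, 3.96, 3.73 and 3.85 CPM after dexfenfluramine, and SNORND104 (ENSOCUG00000019567) had 11.9, 7.86, 8.78, 12.4 and 5.29 CPM in the non-treated valves and 0.645, 1.72, 2.70, 2.42 and 1.44 CPM after dexfenfluramine. Neither overlapped between the groups, and both were near the limit of detection in 1 group.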
